A study of Mus musculus with 4 samples.

Results

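The genes described here are 31 members of the lipid-building pathways, taken by name from a fixed list and all found among the 32289 features of 4 single-cell libraries from mouse lung tumours. They comprise 13 genes of fatty acid and phospholipid synthesis, 14 genes of sterol synthesis, 3 regulators (Srebf1, Srebf2 and Insig1) and Tmem97, a sterol-regulated membrane protein. The rule uses names and no measured value. A further 56 lipid genes (transporters, receptors, later enzymes and regulators) are given as counts beside them.

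All 4 groups carried the same labelled alleles, p53frt, Rosa-FSF-CreERT2 and Hnf4aflox, the controls included, although the sample titles carry different genotype prefixes for vehicle and tamoxifen. Tumours were started by an adenovirus that expressed the FlpO recombinase from the mSPC promoter, which directs it to surfactant-making cells. At 10 weeks the mice received vehicle or tamoxifen, the latter to activate CreERT2 and delete Hnf4a, and tumours were collected 2 weeks later. From each treatment, 1 library was made of the dissociated macroscopic tumours (pre-depletion) and 1 after CD45+ and CD31+ cells had been removed with beads (post-depletion), so both libraries of a treatment come from the same suspensions and are not replicates. With 1 library per group no test is possible. The intervals given cover counting error only, and the number of mice pooled is not given in the sources used here.

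The libraries held 6558 to 7867 cell barcodes and 92644997 to 144994771 unique molecular identifiers (UMIs, counts of RNA molecules), and any pair of libraries shared 10 to 18 barcode sequences. In epithelial-like cells, Hnf4a stood at 53.8 and 55.2 CPM (UMIs of a gene scaled to a total of 1e6) before and after depletion with vehicle, and at 86.3 and 83.2 CPM with the tamoxifen label. These 3' counts need not cover the deleted part of the gene, so they do not check the deletion, and directions below are those of the libraries as labelled.

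Fatty acids are built in the cytosol from citrate-derived acetyl-CoA by ATP citrate lyase (Acly), acetyl-CoA carboxylase (Acaca) and fatty acid synthase (Fasn), then lengthened by the Elovl enzymes and desaturated by the Scd enzymes. Sterols are built from the same acetyl-CoA through mevalonate and squalene. Both routes are switched on by the SREBP transcription factors: Srebf1 is known mainly for fatty acid genes and Srebf2 for sterol genes, and Insig1 holds the SREBPs back in the endoplasmic reticulum when sterols are plentiful. Alveolar type 2 cells use the fatty acid route to make surfactant phospholipid, which alveolar macrophages take up and clear.

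SREBP-regulated promoters often pair an SREBP site with a CCAAT box, the site of NF-Y. RefSeq windows of the 250 bases before the start were found for 26 of the 31 members (build GRCm38.p6). Fdps, Sqle, Scd2, Fdft1 and Scd1 were without one. On either strand, ATTGG (the CCAAT box read from the other strand) stood in 16 of the 26 windows, 61.5% against 33.8% of all 32817 RefSeq windows. The 16 were 9 of 11 sterol genes, 4 of 11 fatty acid genes, 2 of 3 regulators and Tmem97. The SREBP-type motif TCACNCCAC was found in 1 of 26 windows, that of Hmgcs1, against 1.05% of all windows, and the E-box CACGTG in 3 of 26 (11.5%) against 6.02%. Each member gave 1 window, while the 32817 could hold several starts of a gene. The shares of members and of all windows therefore rest on unlike sets. Matches overlapped in 1 window, that of Fasn, where CCAAT and ATTGG share bases. The windows below, chosen after the levels were known, belong to 4 sterol genes and to Fasn. The 4 sterol genes were higher in sub-cluster 18 and lower in sub-cluster 20, tumour cell states described further on. Fasn was not called in sub-cluster 18 and was higher in sub-cluster 20, the opposite direction. Capitals mark ATTGG or CCAAT and, in Hmgcs1, TCACCCCAC. Each is written 5' to 3' on the gene's own strand and ends at the base before the RefSeq start.
Hmgcs1 (chr13:119690101-119690350, plus strand): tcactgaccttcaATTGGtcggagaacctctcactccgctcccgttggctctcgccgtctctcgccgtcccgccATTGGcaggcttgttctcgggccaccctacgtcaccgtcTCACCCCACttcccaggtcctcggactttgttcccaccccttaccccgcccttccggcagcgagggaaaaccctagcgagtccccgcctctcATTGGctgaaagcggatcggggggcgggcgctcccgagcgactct
Idi1 (chr13:8885356-8885605, plus strand): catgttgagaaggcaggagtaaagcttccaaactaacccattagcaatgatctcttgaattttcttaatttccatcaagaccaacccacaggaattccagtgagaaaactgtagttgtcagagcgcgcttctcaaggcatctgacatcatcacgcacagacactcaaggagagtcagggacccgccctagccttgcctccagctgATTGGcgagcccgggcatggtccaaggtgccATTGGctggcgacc
Cyp51 (chr5:4104698-4104947, minus strand): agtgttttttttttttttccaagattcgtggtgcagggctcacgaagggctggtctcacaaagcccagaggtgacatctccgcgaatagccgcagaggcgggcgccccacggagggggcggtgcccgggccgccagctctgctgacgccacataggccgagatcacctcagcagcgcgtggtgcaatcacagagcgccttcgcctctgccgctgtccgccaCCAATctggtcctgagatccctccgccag
Msmo1 (chr8:64733579-64733828, minus strand): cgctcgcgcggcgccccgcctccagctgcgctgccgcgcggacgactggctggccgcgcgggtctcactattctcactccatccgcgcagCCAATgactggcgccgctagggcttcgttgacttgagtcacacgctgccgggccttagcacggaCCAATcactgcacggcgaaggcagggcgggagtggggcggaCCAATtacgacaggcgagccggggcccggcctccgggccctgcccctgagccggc
Fasn (chr11:120824548-120824797, minus strand): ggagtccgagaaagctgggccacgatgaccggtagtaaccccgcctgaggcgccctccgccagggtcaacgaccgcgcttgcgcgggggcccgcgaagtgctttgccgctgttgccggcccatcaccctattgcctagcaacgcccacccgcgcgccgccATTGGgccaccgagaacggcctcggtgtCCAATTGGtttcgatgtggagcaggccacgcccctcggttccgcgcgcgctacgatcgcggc
The ATTGG matches began 45 and 14 bases before the start in Idi1, 160, 96 and 55 bases before it in Msmo1, 29 in Cyp51, 237, 176 and 45 in Hmgcs1, and 90, 62 and 59 in Fasn. RefSeq and the GENCODE gene positions used below place the starts differently. The RefSeq start lies 214 bases inside the GENCODE gene for Msmo1, 105 for Idi1 and 49 for Cyp51, so every match printed for these 3 lies inside it. For Fasn the starts are the same, and for Hmgcs1 the RefSeq start lies 28 bases outside. Of the 26 windows, 4 (Acaca, Gpam, Pmvk and Srebf1) belong to RefSeq starts over 1000 bases inside the GENCODE gene. A match describes these letters only; no binding was measured in these libraries.

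Cells were sorted into classes with the 31 members and the 56 wider genes left out of the clustering, so no class was made from them. Epithelial-like cells numbered 931 and 6374 in the vehicle pre- and post-depletion libraries and 988 and 7026 in those labelled tamoxifen. Of these, 33.4%, 22.5%, 16.5% and 14% formed 1 sub-cluster led by Lyz1, Cbr2 and Lyz2, whose highest marker score was that of the type 2 list, called Lyz1-high type 2-like. Their Lyz1 level was 1715 to 1989 CPM, against 49.4 to 80.1 CPM in the other epithelial-like cells. Immune classes were compared in the pre-depletion libraries only.

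Each member was ranked over 12 cell classes. The type 2-like cells held the top level for 13 of the 31 members, dendritic-like cells for 8, alveolar macrophage-like cells for 4 and the other epithelial-like cells for 3. Monocyte-like, neutrophil-like and fibroblast-like cells each led for 1. These ranks go by the middle of each class's range over libraries, and for 11 of the 31 members the top range overlapped the second, including every member led by the other epithelial-like, monocyte-like, neutrophil-like or fibroblast-like cells. Such ranks were not made over all genes, so the counts do not show whether a class led the members more often than other genes. Unnamed clusters were not ranked. Summed over the 13 fatty acid genes, the type 2-like cells held 8417 and 6676 CPM before and after depletion with vehicle and 8773 and 7633 CPM with tamoxifen, while the other epithelial-like cells held 1892, 1562, 1975 and 1908 CPM. The 14 sterol genes summed to 650.1, 622, 666 and 660.1 CPM in the type 2-like cells, less than 1.5-fold above the 501, 504, 489.8 and 492 CPM of the other epithelial-like cells. Non-cycling alveolar macrophage-like cells had the reverse balance, with fatty acid sums of 506 and 529 CPM and sterol sums of 619 and 643 CPM in the pre-depletion libraries.

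**Figure D1:**
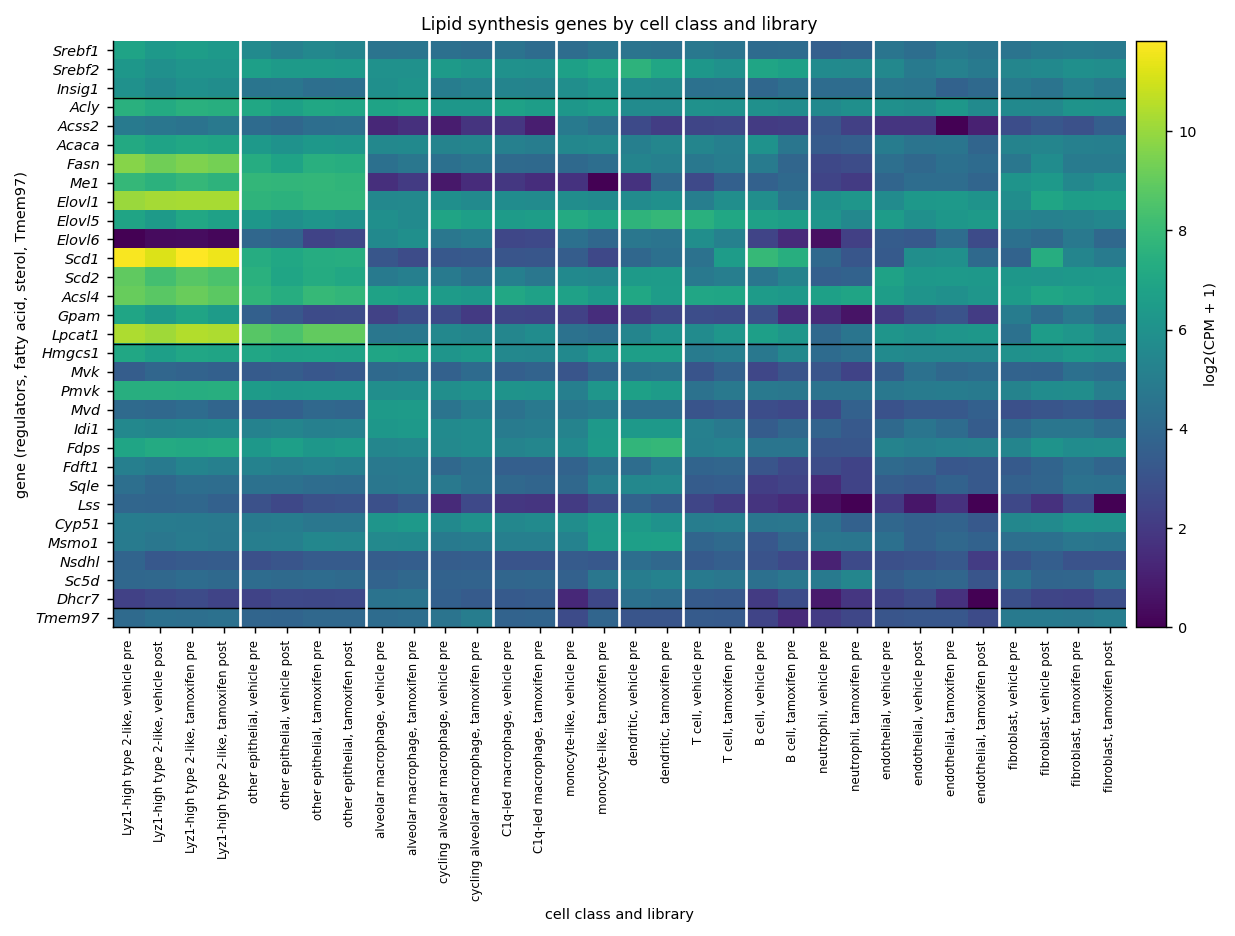
Heat map of log2(CPM + 1) for the 31 genes (rows, in the order regulators, fatty acid, sterol, Tmem97) in each cell class and library (columns). Scd1, Fasn, Elovl1 and Lpcat1 are brightest in the 4 type 2-like columns, and Mvd is brightest in the non-cycling alveolar macrophage columns.

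Within each library, the type 2-like cells were set against the other epithelial-like cells. A gene was counted as higher or lower when it reached 10 CPM in either class and was at least 1.5-fold apart the same way in all 4 libraries. Of 28 members that passed the level filter, 12 were higher and none was lower, where 5.53% of the 8803 genes tested were higher and 30.6% lower. The 12 were 8 of the 13 fatty acid genes, 2 of the 14 sterol genes, Srebf1 and Insig1. The median log2 ratio of the fatty acid genes was 1.35, 1.32, 1.21 and 1.03, in the order vehicle pre, vehicle post, tamoxifen pre and tamoxifen post, which is used for every set of 4 values below. That of the sterol genes was 0.10, -0.01, 0.16 and 0.09, and that of all genes tested was -0.48, -0.48, -0.44 and -0.46. The type 2-like cells put much of their RNA into few genes, and scaling by TMM (a trimmed mean of ratios) moved the median of all genes to -0.01. Under TMM 17 members were higher and none lower, with Acly, Elovl5, Fdps, Acss2 and Tmem97 added, and the sterol medians became 0.45 to 0.57. The share of higher genes among all calls was 15.3% by CPM, 49.5% under TMM and 53.8% under the median of ratios.

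Scd1 (chr19:44394455-44407879, minus strand), the delta-9 desaturase that makes oleate and palmitoleate, was the member furthest apart. It stood at 3356, 2320.1, 3614 and 2914 CPM in the type 2-like cells and at 158, 129, 161 and 163 CPM in the others, log2 ratios of 4.40, 4.16, 4.48 and 4.15. Every type 2-like value lay more than 10-fold above every other epithelial value. With each cell thinned to 2000 UMIs, a Scd1 UMI was seen in 93.7%, 89.4%, 95.7% and 93.2% of type 2-like cells and in 22.0%, 16.9%, 20.6% and 19.3% of the others. In non-cycling alveolar macrophage-like cells, of the pre-depletion libraries only, the shares were 1.76% and 1.37%. Whether those few UMIs came from the macrophages or from free RNA was not tested. Before thinning the shares were 98.7%, 98.5%, 99.4% and 99.6% against 64.2%, 54.3%, 61.0% and 54.2%. Median depth was 11284 to 20024 UMIs per type 2-like cell and 18268 to 33680 in the others, so the class with more Scd1 was the shallower one.

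Gpam, which attaches the first acyl chain to glycerol-3-phosphate, followed at 123, 86.0, 117 and 89.8 CPM against 11.4, 8.24, 5.42 and 5.66 CPM, log2 ratios of 3.32, 3.23, 4.20 and 3.77. Elovl1, an elongase of saturated very long chains, stood at 1067, 1209.7, 1230.2 and 1249 CPM against 203, 191, 218 and 222 CPM (log2 2.39, 2.66, 2.49 and 2.49). Fasn was at 817, 612, 732 and 644 CPM against 159, 116, 176 and 165 CPM (log2 2.35, 2.39, 2.05 and 1.96). None of these 3 genes overlapped between the classes in any pair of libraries, though the share of all genes without overlap was not counted. Lpcat1, which remodels lysophosphatidylcholine into the saturated phosphatidylcholine of surfactant, had 1326, 1131, 1399 and 1314 CPM against 424, 358, 502 and 502 CPM, ratios of 1.64, 1.65, 1.48 and 1.39 on the log2 scale. Scd2, a second desaturase, had 483, 310.0, 429 and 349.6 CPM against 179, 123, 151 and 137 CPM (log2 1.43, 1.32, 1.5 and 1.35). Acsl4, which activates polyunsaturated fatty acids, had 544, 439.7, 553 and 452 CPM against 212, 162, 239 and 222 CPM (log2 1.35, 1.43, 1.21 and 1.03). Acaca was the smallest of the fatty acid calls, at log2 0.68 to 0.83.

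Elovl6, which extends palmitate to stearate, went the other way within the same arm. It was all but undetected in type 2-like cells, with 0, 5, 1 and 2 UMIs in the 4 libraries (0, 0.286, 0.302 and 0.172 CPM), against 14.2, 12.6, 4.18 and 4.93 CPM in the other epithelial-like cells. The exact Poisson upper limits of the type 2-like levels were 0.687, 0.667, 1.68 and 0.621 CPM. It was not counted because neither class reached 10 CPM in the libraries labelled tamoxifen. Me1, which supplies NADPH, did not differ by 1.5-fold, at 189.9 to 233 CPM against 211 to 225 CPM.

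Of the regulators, Srebf1 (chr11:60199089-60222581, minus strand) stood at 114, 82.3, 94.5 and 82.8 CPM in type 2-like cells and at 49.6, 35.4, 45.5 and 39.2 CPM in the others, log2 1.18, 1.20, 1.04 and 1.06. Insig1 (chr5:28071363-28078662, plus strand) stood at 61.2, 47.7, 59.8 and 53.9 CPM against 22.8, 23.8, 19.1 and 19.6 CPM, log2 1.39, 0.97, 1.60 and 1.41. Srebf2 (chr15:82147181-82205379, plus strand) leaned the other way without reaching the fold, at 74.3, 59.9, 70.0 and 71.4 CPM against 101, 86.6, 87.0 and 83.8 CPM, log2 -0.44, -0.52, -0.31 and -0.23. That lean depended on the scale: under TMM the Srebf2 values became 0.02, -0.06, 0.10 and 0.21. In the sterol arm Pmvk, phosphomevalonate kinase, was higher at 169, 167, 163 and 172 CPM against 88.9, 78.9, 81.9 and 82.5 CPM (log2 0.92, 1.07, 0.99 and 1.05), and Lss, which closes the sterol ring, at log2 0.65 to 1.30 from levels of 4.92 to 14.2 CPM. The early enzyme Hmgcs1 was at 101 to 132 CPM against 111 to 126 CPM, so the classes overlapped.

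**Figure D2:**
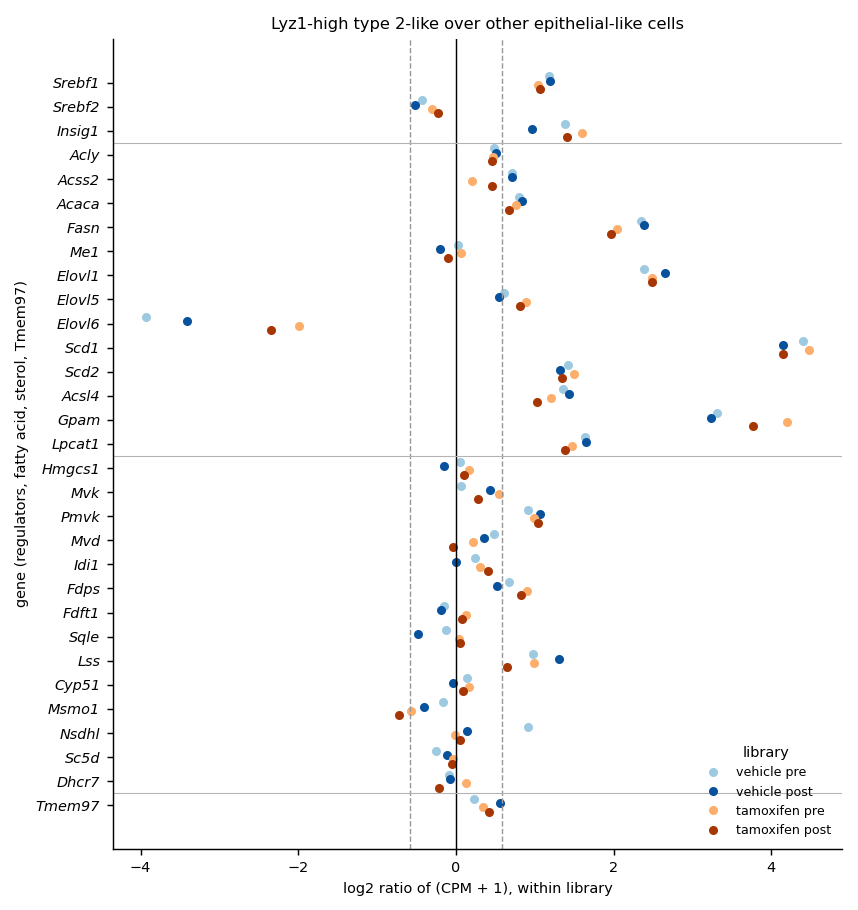
Log2 ratio of (CPM + 1) in type 2-like over other epithelial-like cells for each gene (rows) in each of the 4 libraries (coloured points); dashed lines mark 1.5-fold. Scd1 and Gpam lie furthest right, the sterol genes cluster near 0, and Elovl6 lies furthest left.

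Among the wider genes, 7 were higher in type 2-like cells and 7 lower. Abca3, the lamellar body lipid transporter, stood at 817, 580.2, 747 and 642 CPM against 290.0, 200.1, 316 and 277 CPM (log2 1.21 to 1.53). Acat2 (log2 1.22 to 1.5) and the phosphatidate phosphatase Lpin1 (1.17 to 1.47) were also higher. Pparg, a lipid-responsive nuclear receptor, was far lower, at 4.1, 3.83, 3.32 and 4.04 CPM against 68.4, 61.0, 61.4 and 58.3 CPM (log2 -3.85 to -3.56). Acsl3 (log2 -2.02 to -1.77) and Gpat4 (log2 -1.64 to -1.30) were lower too. The acyltransferase isoenzymes differed in direction, with Gpam higher and Gpat4 lower in the same cells.

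The other epithelial-like cells fell into sub-clusters, and 19 of them had at least 50 cells in a library. Each was set against the remaining non-type 2-like epithelial cells of the same library, with the same fold rule over every library that held 50 of its cells. Across the 19 states, 24 of the 31 members were higher in at least 1 state and 27 lower in at least 1, with 29 passing the level filter in some state. Of the 11027 genes that passed it in some state, 68.2% were higher and 67.9% lower in at least 1. Scd1 was the most variable by this count, higher in 6 states and lower in 9, and Msmo1 was higher in 3 and lower in 8. Lss and Dhcr7 passed the level filter in no state and Nsdhl in 2, so that they had few or no chances of a call. Over all genes, 0.998% to 31.2% were higher and 3.06% to 32.6% lower in a state, and pairs of percentages in brackets below give these shares, higher first. Under TMM they became 5.11% and 9.25% in sub-cluster 1, 10.2% and 11.1% in 7, 4.66% and 7.74% in 8, 1.77% and 2.1% in 9, and 10.4% and 12% in 11. They became 8.51% and 15.9% in sub-cluster 12, 5.05% and 7.16% in 14, 9.97% and 14% in 15, 15.1% and 42.6% in 17, and 15.7% and 20.5% in 21.

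**Figure D3:**
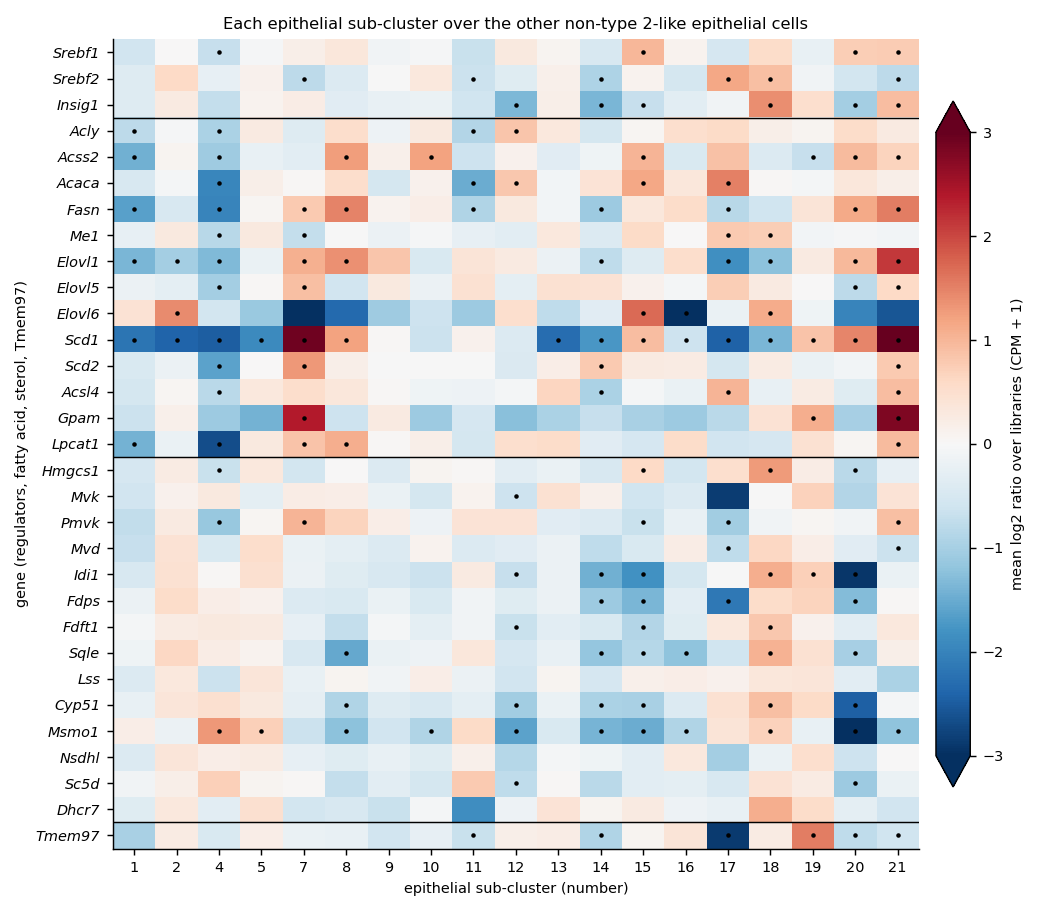
Mean log2 ratio of (CPM + 1) over the libraries used (colour, held at 3 either way) for each gene (rows) in each epithelial sub-cluster (columns) against the other non-type 2-like epithelial cells; dots mark calls. The sterol rows are mostly red in column 18 and mostly blue in columns 14 and 20, while the fatty acid rows are mostly blue in columns 1 and 4.

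Sub-cluster 18 was led by Agr2, Adgrl3 and Gap43 and was seen in the vehicle libraries only (53 and 454 cells, against 0 and 0). Of 26 members that passed the level filter there, 10 were higher and 2 lower, where 6.25% of 9150 genes were higher and 10.9% lower. The sterol genes had median log2 ratios of 0.62 and 0.71 in the vehicle pre- and post-depletion libraries, the fatty acid genes -0.01 and 0.07, and all genes -0.10 and -0.09. Hmgcs1, which makes HMG-CoA, stood at 277 and 208 CPM against 102 and 95.7 CPM (log2 1.43 and 1.11). Insig1 stood at 53.1 and 49.1 CPM against 17.9 and 19.7 CPM (log2 1.51 and 1.27). Idi1, the isopentenyl diphosphate isomerase, stood at 70.2 and 73.7 CPM against 32.1 and 34.8 CPM (log2 1.11 and 1.06). These 3 genes and Srebf2, at 176 and 138 CPM against 88.8 and 78.2 CPM (log2 0.98 and 0.81), did not overlap between the state and the rest. How many of all genes did the same was not counted. Squalene epoxidase (Sqle) had 41.7 and 33.8 CPM against 17 and 18.4 CPM (log2 1.25 and 0.84). Cyp51, the lanosterol demethylase, had 44.5 and 52.3 CPM against 24.2 and 26.4 CPM (log2 0.85 and 0.96). Squalene synthase (Fdft1) had 60.7 and 50.4 CPM against 32.7 and 29.9 CPM (log2 0.87 and 0.74). In all, 6 of the 14 sterol genes were higher and none lower. Msmo1 and Me1 were higher by log2 0.68 to 0.75.

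Within the fatty acid arm the same state was mixed. Elovl6 was higher, at 29.1 and 23.0 CPM against 11.8 and 11 CPM (log2 1.23 and 1.0). Scd1 was lower, at 55.5 and 63.5 CPM against 174 and 140 CPM (log2 -1.63 and -1.13). Elovl1 was lower, at 85.9 and 95.3 CPM against 222 and 206 CPM (log2 -1.36 and -1.11). Srebf1 missed the fold in 1 library, at 72.4 and 46.1 CPM against 46.0 and 33.6 CPM (log2 0.64 and 0.44). Of the wider genes 9 were higher, among them the sterol carrier Stard4 (log2 1.16 and 1.14) and Dgat2 (log2 1.53 and 1.40). Another 7 were lower, among them Npc1 (log2 -2.48 and -1.87) and the sterol isomerase Ebp (log2 -1.67 and -1.32). The state's median depth was 36631 UMIs per cell, and its part in the result was not tested.

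Sub-cluster 20, led by Plppr1, Dcn and Lypd2, was seen almost entirely in the libraries labelled tamoxifen (64 and 337 cells, against 4 and 9). Of 25 members that passed the filter, 5 were higher and 10 lower, where 7.9% of 9240 genes were higher and 18% lower. Here the arms parted: the sterol genes had median log2 ratios of -0.82 and -0.81 in the tamoxifen pre- and post-depletion libraries, the fatty acid genes 0.07 and 0.18, and all genes -0.18 in both. The lowest were Msmo1, which removes the sterol 4-methyl groups, at 4.36 and 4.54 CPM against 46.2 and 44.3 CPM (log2 -3.14 and -3.03), and Idi1 at 3.81 and 4.17 CPM against 37.1 and 36.8 CPM (log2 -2.99 and -2.87). Cyp51 stood at 4.36 and 3.60 CPM against 26.3 and 26.1 CPM (log2 -2.35 and -2.56). All 3 were below 5 CPM in the state and above 25 CPM in the rest, a gap that was not counted over all genes. Farnesyl diphosphate synthase (Fdps) had 37.6 and 29.0 CPM against 77.6 and 87.1 CPM (log2 -1.03 and -1.56). Sc5d had 7.08 and 7.95 CPM against 18 and 16.3 CPM (log2 -1.23 and -0.95). Sqle had 10.3 and 6.82 CPM against 18.5 and 17.3 CPM (log2 -0.78 and -1.23), and Hmgcs1, Elovl5 and Tmem97 were lower at log2 -0.84 to -0.73.

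In those cells 4 fatty acid genes were higher. Scd1 stood at 434 and 388 CPM against 142 and 153 CPM (log2 1.61 and 1.34), and Fasn at 374 and 329.5 CPM against 162 and 157 CPM (log2 1.20 and 1.06). Elovl1 stood at 382 and 443 CPM against 206 and 212 CPM (log2 0.88 and 1.06), and the acetyl-CoA synthetase Acss2 at 32.1 and 38.1 CPM against 17.5 and 18 CPM (log2 0.84 and 1.04). Of the regulators, Srebf1 was higher at 79.0 and 59.5 CPM against 43.2 and 38.2 CPM (log2 0.86 and 0.62). Insig1 was lower at 7.62 and 11.6 CPM against 19.9 and 20.001 CPM (log2 -1.27 and -0.74). Srebf2 was at 65.9 and 53.4 CPM against 88.4 and 85.1 CPM (log2 -0.42 and -0.66), past the fold in 1 library only.

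Of the wider genes 8 were higher and 11 lower in sub-cluster 20. The cholesterol exporter Abca1 stood at 78.4 and 72.9 CPM against 11.7 and 10.9 CPM (log2 2.65 and 2.63). Mylip, a ubiquitin ligase, stood at 52.8 and 54.9 CPM against 7.92 and 7.59 CPM (log2 2.59 and 2.70). Both are known targets of the sterol-sensing LXR receptors. Pparg was lower (log2 -1.7 and -1.91). The median depth of the state was 15947 UMIs per cell and its median mitochondrial share 5.1%, and their part in the result was not tested. Under TMM no call of sub-cluster 18 or 20 was lost. Because each state was found with 1 treatment label, the state and the treatment, or the mice behind it, cannot be told apart.

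Sub-cluster 4, led by Inhba, Pyy and Fst, held 273 cells in the vehicle and 605 in the tamoxifen post-depletion library. It was low in the fatty acid arm. Of its members 1 was higher and 14 lower, where 14.1% of 9160 genes were higher and 13.9% lower, and the 14 included 11 of the 13 fatty acid genes. The median of the fatty acid genes was -1.15 and -1.25 on the log2 scale, that of the sterol genes 0.17 and 0.11. Lpcat1 stood at 51.2 and 99.9 CPM against 378 and 553 CPM (log2 -2.86 and -2.46). Scd1 stood at 21 and 35.9 CPM against 136 and 179 CPM (log2 -2.64 and -2.29). Fasn stood at 30.6 and 44.1 CPM against 122 and 180.0 CPM (log2 -1.96 and -2.01), and Acaca at 14.7 and 22.8 CPM against 68.1 and 79.9 CPM (log2 -2.14 and -1.76). Srebf1 was lower too, at 21.9 and 25.5 CPM against 36.2 and 40.9 CPM (log2 -0.70 and -0.66). Srebf2 (log2 -0.28 and -0.18) and Insig1 (log2 -0.44 and -0.99) were not counted. The single higher member was Msmo1, at 85.6 and 82.3 CPM against 29.9 and 37.5 CPM (log2 1.49 and 1.11), the gene that was lowest in sub-cluster 20.

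Sub-cluster 1, led by Krt17, Serpinb2 and Il24, had 56 to 918 cells in all 4 libraries. Of its members 6 were lower, all of the fatty acid arm, and none higher, where 6.72% of 8864 genes were higher and 8% lower. Scd1 was lower at 34.2, 48.3, 20.5 and 47.1 CPM against 181, 147, 171 and 172 CPM (log2 -2.37, -1.59, -3.0 and -1.84). Fasn (log2 -1.92 to -1.39), Lpcat1 (-1.75 to -1.26), Elovl1 (-1.79 to -1.12), Acss2 (-1.74 to -0.99) and Acly (-0.95 to -0.67) were the others. Sub-cluster 14, type 1-like by Rtkn2, Hopx and Cav1, was lower in both arms. It was compared in 3 libraries (140 cells in vehicle post, 67 in tamoxifen pre and 382 in tamoxifen post), with 12 members lower and 1 higher, where 5.77% of 8923 genes were lower and 6.72% higher. Idi1 stood there at 11.5, 12.8 and 16.1 CPM against 40.8, 36.1 and 36.2 CPM (log2 -1.75, -1.42 and -1.12). Msmo1 stood at 11, 15.7 and 18.8 CPM against 33.6, 44.9 and 43.6 CPM (log2 -1.53, -1.46 and -1.17). Insig1 stood at 9.70, 6.42 and 6.86 CPM against 24.1, 19.7 and 20.2 CPM (log2 -1.23, -1.48 and -1.43), and Srebf2 was lower too (log2 -0.85, -1.09 and -0.85). The one higher member was Scd2, at 207, 245 and 239 CPM against 122, 146 and 133 CPM (log2 0.76, 0.74 and 0.85), while the other desaturase Scd1 was lower (log2 -1.28, -2.66 and -1.33).

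**Figure D4:**
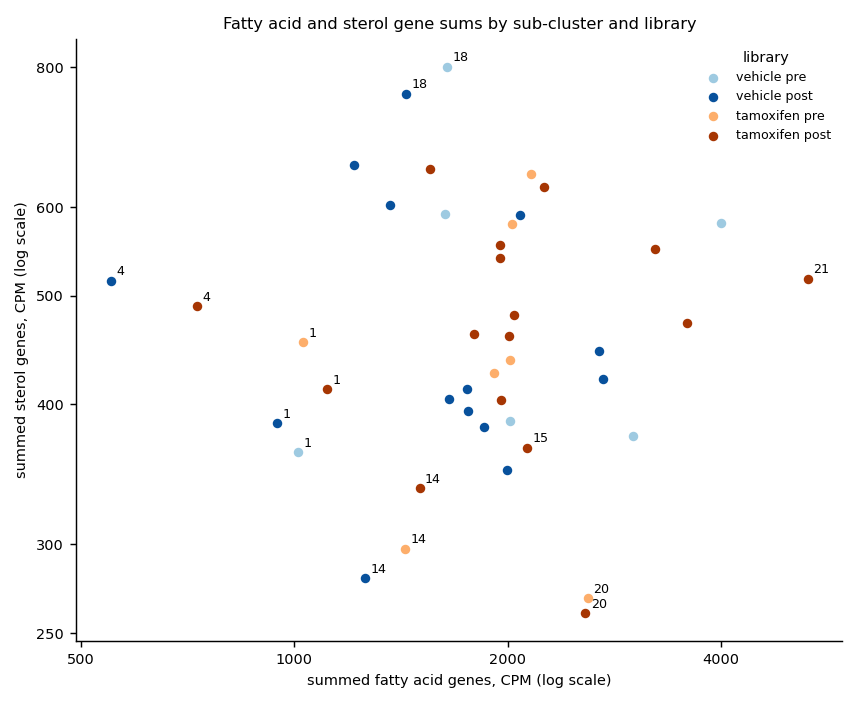
Summed CPM of the 14 sterol genes (vertical, log scale) against that of the 13 fatty acid genes (horizontal, log scale) for each epithelial sub-cluster and library (points, coloured by library), with 7 sub-clusters numbered. Sub-cluster 18 lies at the top with sterol sums of 801 and 758 CPM, sub-cluster 20 at the bottom with 269 and 260 CPM, and sub-cluster 4 at the left with fatty acid sums of 552 and 729 CPM.

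Sub-clusters 7, 8 and 21 had higher members of the fatty acid arm outside the Lyz1-led sub-cluster. Sub-cluster 7, led by Cyp2b10, Cap2 and Sec14l3 and with type 1 as the highest of its own marker scores, had 8 members higher and 2 lower, where 8.14% of genes were higher and 14.1% lower. Scd1 stood there at 993, 684 and 1049.6 CPM in the vehicle pre, vehicle post and tamoxifen post libraries against 108, 108 and 139.8 CPM (log2 3.19, 2.65 and 2.90). Gpam stood at 46.4, 28.2 and 48.4 CPM against 9.34, 7.47 and 4.55 CPM (log2 2.20, 1.78 and 3.15). These were the 2 genes furthest apart in the type 2-like cells too, at levels below theirs. Srebf2 was lower, at 57.7, 48.1 and 53.9 CPM against 103, 88.1 and 84.5 CPM (log2 -0.83, -0.86 and -0.64), but under TMM neither it nor Me1, the other lower member, was called. Sub-cluster 8, led by Bex2, Ryr2 and Greb1, had 5 members higher, all of the fatty acid arm, and 3 lower, all of the sterol arm, where 3.41% of genes were higher and 10.3% lower. Fasn stood at 395, 311 and 373 CPM against 133, 100.2 and 154 CPM (log2 1.57, 1.62 and 1.27), while Sqle stood at 4.15, 7.85 and 7.78 CPM against 22.3, 21.6 and 17.3 CPM (log2 -2.17, -1.35 and -1.06). Under TMM Cyp51 was no longer among the lower ones. In the tamoxifen post library alone, the 61 cells of sub-cluster 21, led by the interferon-induced genes Iigp1, Ubd and Gbp2 but with type 2 as the highest of its own marker scores, had 12 members higher and 4 lower, where 9.42% of genes were higher and 32.6% lower, with Scd1 at 1664 against 151 CPM (log2 3.45). Under TMM 13 were higher and 1, Msmo1, lower.

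The 11 remaining states had between 0 and 14 members called. Sub-clusters 12 and 16 were compared in the vehicle post library only (311 and 167 cells). Sub-cluster 15 was compared in the tamoxifen post library only (313 cells), so no second library shows the direction for these states. Sub-clusters 5, 10 and 15 lay mostly in the libraries labelled tamoxifen, and 12 and 16 mostly in the vehicle ones. State and treatment cannot be told apart there either. In sub-cluster 2, led by Guca2a, Ttr and Spink1, Elovl6 was higher and Scd1 and Elovl1 lower, where 2.42% of genes were higher and 3.8% lower. In sub-cluster 5, led by Ahsg and Dlk1, Msmo1 was higher and Scd1 lower, where the shares were 3.74% and 6.43%. Sub-cluster 9 had none either way (0.998% and 3.06%), though Elovl1 was higher under TMM, sub-cluster 10 had Acss2 higher and Msmo1 lower (2.75% and 7.02%), and sub-cluster 13 had only Scd1, lower (1.71% and 4.78%). Sub-cluster 11 had 5 lower, Fasn, Acaca, Acly, Srebf2 and Tmem97 (5.71% and 19.7%). Under TMM the last 2 were not called, and Elovl5 and Sc5d were higher. Sterol genes or Insig1 supplied 7 lower members of sub-cluster 12, among them Msmo1 at 10.7 against 34.9 CPM (log2 -1.62), with Acaca and Acly higher (11.6% and 11.9%). Sub-cluster 15, led by Spink5, Hpgd and Scgb3a2, split in the way of sub-cluster 20, with 6 higher and 8 lower (13% and 10.6%): Idi1 stood at 9.69 against 36.4 CPM (log2 -1.81), Insig1 at 11.9 against 19.9 CPM (log2 -0.69), and Srebf1 at 76.2 against 37.8 CPM (log2 0.99). Hmgcs1 stood at 167 against 109.5 CPM there (log2 0.61), a call that was lost under TMM. Sub-cluster 16 had 4 lower, Scd1, Elovl6, Sqle and Msmo1 (10.2% and 15.2%). Sub-cluster 17, whose cells had a median mitochondrial share of 13% and a median depth of 6734 UMIs, had 4 higher and 7 lower (31.2% and 30.1%). Under TMM 1 was higher and 13 lower, with the median of all genes at -0.52, and the part of that RNA quality in the result was not tested. Sub-cluster 19, the cycling one, had Scd1, Idi1, Gpam and Tmem97 higher and Acss2 lower (6.1% and 4.56%).

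Alveolar macrophage-like cells (1640 and 2087 cells in the vehicle and tamoxifen pre-depletion libraries) were set against epithelial-like cells of the same library. Of 30 members that passed the filter, 6 were higher and 13 lower, where 23.6% of 9889 genes were higher and 32.5% lower. The fatty acid genes made up 10 of the 13 lower members, with median log2 ratios of -2.88 and -2.48. The sterol genes had medians of 0.33 and 0.14, and all genes -0.17 and -0.19. Under TMM the median of all genes became 0.13, 8 members were higher and 10 lower, and the share of higher genes among all calls went from 42.0% to 55.2%. Mvk and Tmem97 joined the higher members, and Acaca, Fdps and Pmvk left the lower ones.

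Scd1 in the macrophages stood at 8.06 and 6.32 CPM against 751 and 524 CPM (log2 -6.37 and -6.16). Me1 stood at 1.67 and 2.95 CPM against 226 and 224 CPM (log2 -6.41 and -5.83). Lpcat1 stood at 29.4 and 28.2 CPM against 591 and 596 CPM (log2 -4.28 and -4.35). Fasn had 19.4 and 24.7 CPM against 281 and 234 CPM (log2 -3.79 and -3.19), so none of these 4 genes came near its epithelial level. Elovl1 (log2 -2.88 and -2.78), Acss2 (-3.08 and -2.62) and Scd2 (-3.07 and -2.48) were lower in the same way, and Srebf1 was lower at 21.6 and 22.1 CPM against 61.5 and 50.6 CPM (log2 -1.47 and -1.16).

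The higher members of the macrophages were sterol enzymes, Insig1 and Elovl6. Mvd, mevalonate diphosphate decarboxylase, stood at 71.3 and 79.8 CPM against 11.9 and 15 CPM (log2 2.48 and 2.34). At 2000 UMIs per cell it was seen in 15.1% and 16.2% of the non-cycling macrophages only, the cycling ones left out, and in 1.25% and 1.79% of T cell-like cells. Dhcr7, the last step of one branch to cholesterol, stood at 19 and 20.4 CPM against 4.14 and 4.95 CPM (log2 1.96 and 1.85), and Cyp51 and Idi1 were higher by log2 0.82 to 1.59. Elovl6 (chr3:129532355-129638495, plus strand) stood at 41.6 and 53.8 CPM against 11.6 and 3.77 CPM (log2 1.76 and 3.52). Insig1 stood at 51.3 and 61.0 CPM against 29.9 and 23.3 CPM (log2 0.76 and 1.35), while Srebf2 was at 68.0 and 63.7 CPM against 95.9 and 85.2 CPM (log2 -0.49 and -0.41) and was not counted. The epithelial-like cells here pool both classes, and in the type 2-like cells alone Insig1 was at 61.2 and 59.8 CPM, near the macrophage level. Of the wider genes 12 were higher and 14 lower. The sterol exporter Abcg1 was the highest of them, at 540.1 and 536 CPM against 2.04 and 1.71 CPM (log2 7.48 and 7.63), followed by Lpin1 (log2 3.49 and 3.87) and Gpat3 (2.75 and 3.06). Elovl7 (log2 -4.57 and -4.98), Acsl3 (-3.26 and -3.94) and Chka (-3.23 and -2.99) were the lowest.

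Sterol genes were lower in the C1q-led macrophages (919 and 632 cells) than in the alveolar macrophage-like cells. Against the non-cycling cells of the latter, 2 members were higher in the C1q-led cells (Elovl5, lost under TMM, and Lpcat1) and 8 lower, where 14.7% of 8247 genes were higher and 14% lower. Elovl6 stood at 4.79 and 5.11 CPM against 47.1 and 58.1 CPM (log2 -3.05 and -3.27). Mvd stood at 21 and 26.7 CPM against 87.2 and 88.3 CPM (log2 -2.01 and -1.69), and Hmgcs1 at 44.1 and 44.0 CPM against 122 and 114 CPM (log2 -1.45 and -1.36). The other 5 lower members, Idi1, Fdft1, Dhcr7, Cyp51 and Sqle, also belong to the sterol arm, with log2 ratios of -1.34 to -0.69. Srebf2 was at 61.5 and 59.5 CPM against 62.1 and 62.3 CPM, and Srebf1 at 21.5 and 17.4 CPM against 22.3 and 22.9 CPM. Neither regulator moved by 1.5-fold, and Insig1 was at 39.2 and 37.6 CPM against 57.7 and 65.5 CPM (log2 -0.55 and -0.79).

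Cycling cells were compared with other cells of their class. In alveolar macrophage-like cells (202 and 177 cycling, 1438 and 1910 other), 2 members were higher and 6 lower, where 18% of 8504 genes were higher and 10.3% lower. Mvd was lowest, at 22.7 and 33.3 CPM against 87.2 and 88.3 CPM (log2 -1.90 and -1.38). Dhcr7 (log2 -0.89 and -1.13), Elovl6 (-0.89 and -0.91), Insig1 (-0.85 and -0.83), Msmo1 (-0.77 and -0.68) and Acly (-0.60 and -0.71) were the other lower ones. Elovl5, a polyunsaturated fatty acid elongase, was higher at 119 and 100.4 CPM against 57.7 and 49.7 CPM (log2 1.03 and 1.0), and Lpcat1 too (log2 0.83 and 0.62), though not under TMM. The sterol genes had medians of -0.58 and -0.45 against 0.04 and 0.06 for all genes. Under TMM the median of all genes became -0.12, 1 member was higher and 9 lower, and the share of higher genes among all calls went from 63.5% to 48.7%. Mvd, Dhcr7 and Elovl6 were lower here as in the C1q-led cells, and the cycling cluster also carried monocyte or macrophage markers, whose part in the result was not tested.

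In epithelial-like cells the cycling sub-cluster leaned the other way. Over the vehicle post, tamoxifen pre and tamoxifen post libraries, the sterol genes had medians of 0.32, 0.41 and 0.46, against 0.01, -0.01 and -0.03 for all genes. Of the 14 sterol genes 9 were above 0 in every library, and the matching share of all genes was not counted. Against all other epithelial-like cells, the type 2-like ones included, Tmem97 alone reached the fold upward, at 34.3, 42.1 and 38.0 CPM against 12.8, 13.1 and 13.8 CPM (log2 1.36, 1.61 and 1.40). Acss2 alone was lower, at 8.75, 11.3 and 11.5 CPM against 15.8, 19.3 and 20.02 CPM (log2 -0.79, -0.72 and -0.75). These were 1 and 1 of 28 members that passed the filter, where 6.15% of 8938 genes were higher and 3.75% lower. Against the non-type 2-like cells only, Scd1 (log2 0.99, 0.65 and 0.91), Gpam (1.18, 1.06 and 1.04) and Idi1 (0.60, 0.62 and 0.92) were higher as well.

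The last comparison set the libraries labelled tamoxifen against the vehicle libraries, which addresses how the lipid genes stand after the labelled loss of Hnf4a. In all epithelial-like cells, none of 27 members was higher and 1 was lower in both the pre- and the post-depletion pair, where 1.14% of 9037 genes were higher and 2.15% lower. The median of the members was -0.11 and 0.03 on the log2 scale, beside -0.04 and 0.01 for all genes. The regulators were near level. Srebf1 went from 61.5 to 50.6 CPM in the pre-depletion pair and from 41.4 to 43.0 CPM after depletion (log2 -0.28 and 0.05). Srebf2 went from 95.9 to 85.2 CPM and from 83.1 to 82.7 CPM (log2 -0.17 and -0.01), and Insig1 from 29.9 to 23.3 CPM and from 26.9 to 22.6 CPM (log2 -0.35 and -0.24). None of the 40 wider genes tested was counted either way.

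The single lower member was Elovl6, which went from 11.6 to 3.77 CPM before depletion and from 11 to 4.52 CPM after it (log2 -1.40 and -1.13). The 95% counting intervals of the ratios, which use no pseudocount, were -1.93 to -1.31 and -1.43 to -1.15. Without the type 2-like cells the difference was -1.56 and -1.20, and without sub-clusters 2 and 18, which lay mostly in the vehicle libraries and were high in Elovl6, it was -0.89 and -0.72. Sub-cluster 15 was also high in Elovl6 but was kept in. It lay mostly in the libraries labelled tamoxifen (40 and 313 cells, against 0 and 12 with vehicle). A comparison without all of these states was not made. Within sub-cluster 1, compared in both pairs, it was -0.80 and -0.78. Within others it varied, from -1.58 in sub-cluster 9 of the pre-depletion pair to 1.24 in sub-cluster 13 of the post-depletion pair. With each cell given equal weight it was -1.01 and -0.97 and fell under the level filter.

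The type 2-like cells, which held more Scd1 and Gpam per UMI than the other epithelial-like cells, were 33.4% and 16.5% of the epithelial-like cells in the pre-depletion pair and 22.5% and 14% after depletion. Scd1 went from 751 to 524 CPM before depletion (log2 -0.52) and from 413 to 403 CPM after it (log2 -0.03). Without the type 2-like cells those values became 0.02 and 0.33. Gpam went from 32.1 to 17.2 CPM and from 18.3 to 13 CPM (log2 -0.87 and -0.46), and without the type 2-like cells was at -0.95 and -0.47. Within the type 2-like cells no member was counted either way of 28 tested, where 0.209% of 7672 genes were higher and 0.313% lower, and the members' median was 0.01 and 0.06. There Scd1 differed by log2 0.11 and 0.33, Fasn by -0.16 and 0.07, Gpam by -0.07 and 0.06, Srebf1 by -0.27 and 0.01, Srebf2 by -0.08 and 0.25, and Insig1 by -0.03 and 0.17.

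**Figure D5:**
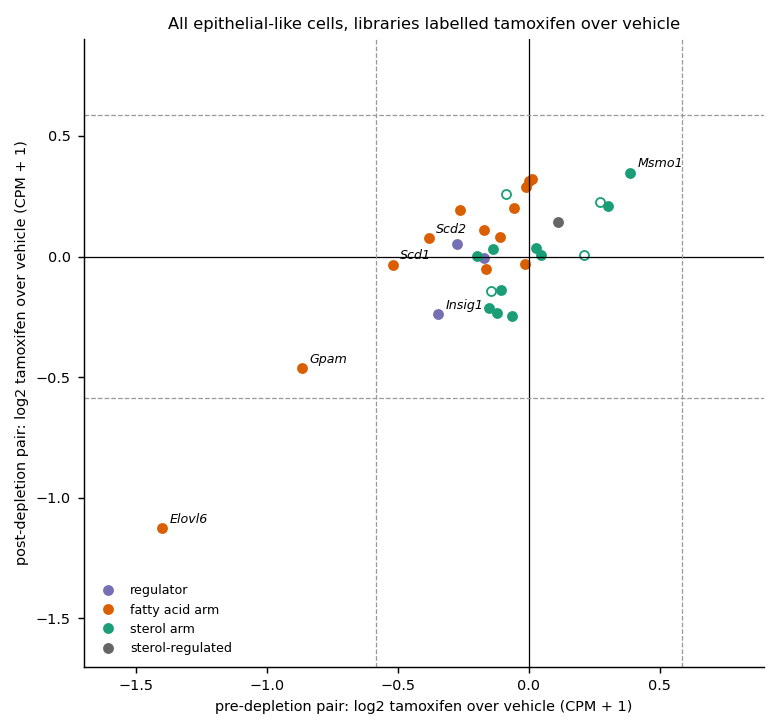
Log2 ratio of (CPM + 1), tamoxifen over vehicle, in all epithelial-like cells for each gene (points, coloured by arm), with the pre-depletion pair on the horizontal and the post-depletion pair on the vertical axis; open points were below the level filter. Most points sit near 0, and Elovl6 stands apart at -1.40 and -1.13.

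In alveolar macrophage-like cells, compared in the pre-depletion pair only, none of 26 members reached 1.5-fold either way, where 0.597% of 8207 genes were higher and 2.89% lower. All 14 sterol genes were above 0 with a median of 0.13, and 8 of the 13 fatty acid genes, with a median of 0.19. All genes tested had a median of -0.04 with 39.3% above 0. The arm values include genes below the level filter (Lss, Scd1, Gpam, Me1 and Acss2), and those of all genes do not. Cycling cells, which were low in sterol genes, numbered 202 of 1640 with vehicle and 177 of 2087 with tamoxifen, and Mki67 went from 202 to 127 CPM and C1qa from 376 to 236 CPM. In non-cycling cells 13 of the 14 sterol genes were above 0 with a median of 0.09, where 40.9% of all genes were above 0. Of the 13 fatty acid genes 10 were above 0 there, with a median of 0.15. Elovl6 went from 41.6 to 53.8 CPM (log2 0.36), Insig1 from 51.3 to 61.0 CPM (0.25), Srebf1 from 21.6 to 22.1 CPM (0.03) and Srebf2 from 68.0 to 63.7 CPM (-0.09). Of 23 members tested in the monocyte or macrophage-like cells none was counted, with a median of 0.02, where 0.842% of 8079 genes were higher and 1.11% lower. The C1q-led macrophages likewise had no member counted, with a median of -0.02, where 0.881% of 8056 genes were higher and 1.43% lower. A single pair without replicates cannot show whether differences of this size exceed the spread between mice.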

How the data were processed

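UMI counts per gene and cell were deposited by the authors as filtered 10x matrices (3' v3 kit), made with Cell Ranger 7.0.1 per the file headers and 7.2.0 per the submitters' processing notes, which name mm10; the annotation and the use of introns and strand are not given in the sources used here. Barcodes under 200 genes or over 20% mitochondrial UMIs were dropped. Scrublet's automatic cut-off called 188, 1, 1 and 0 cells and was replaced by a fixed score of 0.25, which removed 225, 120, 116 and 153 cells, leaving 6111 to 7358 per library. The 4 non-mouse features were left out. Clusters (scanpy 1.11.5, 2000 variable genes, 40 components, Leiden resolution 1) were made without the members and the wider genes and were named from marker lists. After the data were seen, an epithelial sub-cluster with Ptprc in over 50% of its cells and a low-UMI one were left out.

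UMIs were summed per library and class and scaled to CPM. Ratios are log2 of (CPM + 1), with 10 CPM and 1.5-fold as thresholds and at least 50 cells per class and library. Medians of the members and arms use every listed gene, those below 10 CPM included. Medians of all genes use only genes that passed the level filter. Intervals are exact at 95% (Poisson for a level, conditional binomial for a ratio) and cover counting error only. The comparison code was tested on simulated data. Full values were given for the regulators and, per comparison, for at most 10 called members and 6 called wider genes, ranked by their smallest ratio; others are counts and ranges. A gene named outside that rule was chosen after its values were seen. The members and lists were chosen with earlier results of these data known. Alternatives were another pseudocount, threshold, scaling, cell weighting, cell filter and clustering. The vehicle is called by 2 names in the labels, and 1 further allele of the genotype and 2 of the wider genes are not reported here. Samples were grouped by treatment and depletion step, from their labels. Gene positions are from GENCODE vM21 and promoters from RefSeq, both GRCm38.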

Additional observations from a re-analysis of the deposited data

Results flagged for a closer look

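Elovl6 and Insig1 stood out because their tamoxifen to vehicle difference had opposite signs in 2 cell classes, with counting intervals that excluded 0 in every pair. Opposite signs alone were not enough. Gpam had them too, but its interval in alveolar macrophage-like cells, -0.09 to 0.77, included 0. Elovl6 was lower in the libraries labelled tamoxifen in epithelial-like cells, at log2 -1.40 before depletion and -1.13 after it, and was at 0.36 in alveolar macrophage-like cells before depletion. Insig1 was at log2 -0.35 and -0.24 in the epithelial-like cells and at 0.25 in the macrophages. With 1 library per group the difference between the classes was not tested, and the macrophage values did not reach 1.5-fold.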

How the results depend on the processing

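No paired analysis was possible because each group has 1 library, and no replicate could be left out. Of 108 summary counts recomputed under the alternatives, 96 stayed within 1.5 times the main count and 12 did not, and of the values of single genes, 748 stayed within their counting interval and 242 did not. No called gene changed sign, but Srebf2 in the type 2-like cells, not called, did so under TMM. The balance of higher to lower genes turned in the type 2-like cells under median of ratios and, under TMM, in alveolar macrophages against epithelial-like cells, in cycling and C1q-led macrophages, and in sub-clusters 4, 14, 15 and 17. The single lower member of the epithelial-like cells, Elovl6, was not counted with a mean over cells, which gave 0. The type 2-like cells had 1 lower member, Elovl6, without the CPM minimum. In cycling alveolar macrophages, the 2 higher and 6 lower members became 0 and 1 at 2-fold, 1 higher under TMM, and 1 and 3 with a mean over cells. In cycling epithelial-like cells, where 1 was higher and 1 lower, a pseudocount of 0.1 gave 2 higher, a mean over cells 2 higher and 2-fold 0 lower. Across the tumour states, 24 members higher and 27 lower became 14 and 14 at 2-fold. The balance over all genes also turned between treatments when sub-sets of cells were left out. In alveolar macrophages 49 higher and 237 lower genes became 68 and 66 without the cycling cluster. In epithelial-like cells 103 higher and 194 lower became 159 and 158 without sub-clusters 2 and 18. Depth limits the low genes: Elovl6 rested on 0 to 5 UMIs per library in the type 2-like cells. Differences between mice were not measured.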

Other observations

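B cell-like cells were second to the type 2-like cells in Scd1. Their level was 238 CPM in the vehicle and 171 CPM in the tamoxifen pre-depletion library, where the other epithelial-like cells had 158 and 161 CPM, with a UMI in 67.1% and 54.8% of cells. Thinned to 2000 UMIs the shares were 38.9% and 31.1%, against 2.31% and 1.49% in T cell-like cells of the same libraries. The level was spread over the cells: the 4 cells with the most Scd1 held 10.8% and 14.1% of the class's Scd1 UMIs. These B cell-like cells had 2 to 3589 and 0 to 6 Sftpc UMIs, where the class median was 2. Without them the B cell-like level was 221.5 and 153.2 CPM. In T cell-like cells, by contrast, the summed level of 21 and 91.3 CPM lay mostly in 4 cells, which held 61.2% and 93.4% of it. Those 4 cells had 1234 to 7406 and 2226 to 5933 UMIs of the surfactant gene Sftpc, where the class median was 2. Without them the T cell-like level was 8.28 and 6.21 CPM, near that of the alveolar macrophage-like cells. Endothelial-like Scd1 also lay mostly in 4 cells in the vehicle post and tamoxifen pre libraries, at 57.1 and 59.8 CPM with them and 10.1 and 8.69 CPM without them. Those cells had 209 to 2934 and 1 to 4027 Sftpc UMIs, with class medians of 13 and 2.5, so not all of them were high in Sftpc.

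A cluster led by Xcr1 (93 cells) and another led by Siglech (140 cells) made up the dendritic-like class. Clusters led by Ccl22 (148 cells) and by Cd209a (531 cells) stayed unnamed and were not ranked. The dendritic-like cells (109 and 123 cells) held the top level for 8 of the 31 members, by the middle of each range, a count not made over all genes. Fdps stood there at 219 and 230.5 CPM, Msmo1 at 101 and 105 CPM, Sqle at 44.7 and 46.8 CPM and Elovl5 at 206 and 236 CPM, with Srebf2 at 198 and 128 CPM, the latter below the 130.0 CPM of monocyte-like cells in the same library. In monocyte-like cells the summed sterol genes were at 344 CPM in the vehicle and 616 CPM in the tamoxifen pre-depletion library, from 136 and 105 cells. The T cell-like cells had more Elovl6, 56.7 and 35.2 CPM, than either epithelial class.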
